A study of Mus musculus with 4 samples.

Results

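Splicing and heterogeneous nuclear ribonucleoprotein genes were followed across 4 MG_U74Av2 expression arrays of mouse stem cell cultures. The members were the genes whose single symbol in the platform annotation begins with Srsf, Snrp, Hnrnp, Sf3a, Sf3b, Prpf or U2af, which gave 52 genes among 8251 with a single symbol on the array. For each gene the brightest of its probe sets was used, by its mean log2 signal over the 4 arrays. A probe set was tested when it reached the array median on at least 1 array, and 51 of the 52 genes did so. Prpf39, a factor associated with the U1 particle, stayed below the median on all arrays, with a signal of 48.6 to 157 on its brighter probe set.

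R1 is an established line of mouse embryonic stem cells, and all R1 cultures received LIF, a cytokine that keeps such cells undifferentiated, and beta-mercaptoethanol in DMEM. Embryoid bodies, the unattached clusters that R1 cells formed over 48 hours, gave 2 arrays, titled aggregation and suspension. Adherent R1 cells on gelatin gave 1 array, and neurospheres of the E13.5 telencephalon, grown with FGF2 in a DMEM and F12 medium, gave 1 array. The labels give no strain for the neurospheres and do not say whether embryos were pooled, and they list astrocytes, oligodendrocytes and other glia among possible contaminants of that culture. Nothing in the labels places the embryoid body arrays in separate cultures, so the p-values of the 3-group fit rest on how far these 2 arrays differ, and that spread may be technical.

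Introns are removed from a primary transcript by the spliceosome, which is assembled anew on each intron. The U1 particle reads the start of the intron, U2AF and then the U2 particle with SF3A and SF3B read its end and branch site, and a particle of U4, U6 and U5 joins before the complex becomes active. SR proteins mostly favour the use of nearby exons, and hnRNPs often oppose it, so their balance takes part in the choice of alternative exons, which differs widely between neural and other tissues.

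Cell identity markers separated the neurospheres from the R1 cultures. Of 8 pluripotency markers, 8 lay above the array median on each R1 array and 1 did so in neurospheres, and their summed signal was 50941 to 57602 against 1100. Of 8 neural progenitor markers, 7 lay above the median in neurospheres and 3 to 4 on the R1 arrays, with sums of 66541 against 1452 to 1999. Markers of other cells also differed: 5 of 6 astrocyte markers lay above the median in neurospheres against 1 to 2 on R1 arrays (sum 7283 against 4051 to 7788), and 5 of 8 neuron markers against 2 (8378 against 4964 to 6796). Of 6 oligodendrocyte markers 2 lay above it in neurospheres and 2 to 3 on R1 arrays (2274 against 888 to 1717). Of 5 endoderm, 5 fibroblast and 5 microglia markers, 1, 3 and 2 lay above it in neurospheres and 0 to 1, 2 to 3 and 2 on R1 arrays (987, 2992 and 2129 against 519 to 664, 1598 to 4416 and 882 to 1881). No listed marker was at 0 on any array. In bulk RNA, fewer cells of a type and less RNA per cell cannot be told apart, and the part of contaminating cells in the values below was not tested. After scaling to one trimmed mean, the adherent array stood apart in its distribution, with a median of 178 against 225 to 242 and a 90th percentile of 1588 against 1420 to 1488.

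The first comparison asked how neurospheres differ from R1 cells. Of the 51 genes tested, 10 fell in neurospheres and 0 rose (limma, adjusted p under 0.05), and with unadjusted p below 0.05, 15 lay under R1 cells and 1 above. Over all 6843 features tested, 11.9% fell and 8.2% rose, and 17.2% and 15.4% had an unadjusted p below 0.05. The members were mostly bright, and among the 2778 features at or above the lower quartile of the members' mean log2 the shares were 21.3% lower and 10.5% higher. Of the 38 members in that brighter range 9 fell, which is 23.7%, so the share that fell was near that of bright features in general. The members' median difference was -0.39 on the log2 scale, against 0.10 for all features and -0.15 for the brighter ones. A difference below 0 was found for 40 of 51 members (78.4%), against 45.7% of all features and 56.1% of the brighter ones.

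The genes that fell were Sf3b3, Sf3b1 and Sf3a3 of the U2 particle, Prpf8 and Prpf6 of the particle that brings U5, the hnRNP genes Hnrnpk, Hnrnpa1, Hnrnph1 and Hnrnpl, and the SR protein gene Srsf6. Neurospheres had the lowest signal of the 4 arrays for 27 of the 51 members and the highest for 6, against 32% and 35% of all features. In the brighter range it was 21 and 4 of 38 members, against 42.8% and 28.9% of features. At least 2-fold below every R1 array, after adding 32, were 3 members, Sf3b3, Prpf8 and Hnrnpa1, and 0 were at least 2-fold above, against 9.37% and 9.18% of all features. In the brighter range it was 2 and 0 of 38 members, against 12.9% and 5.4%. All differences are of log2(signal + 32), so a change of a dim gene is understated.

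**Figure D1:**
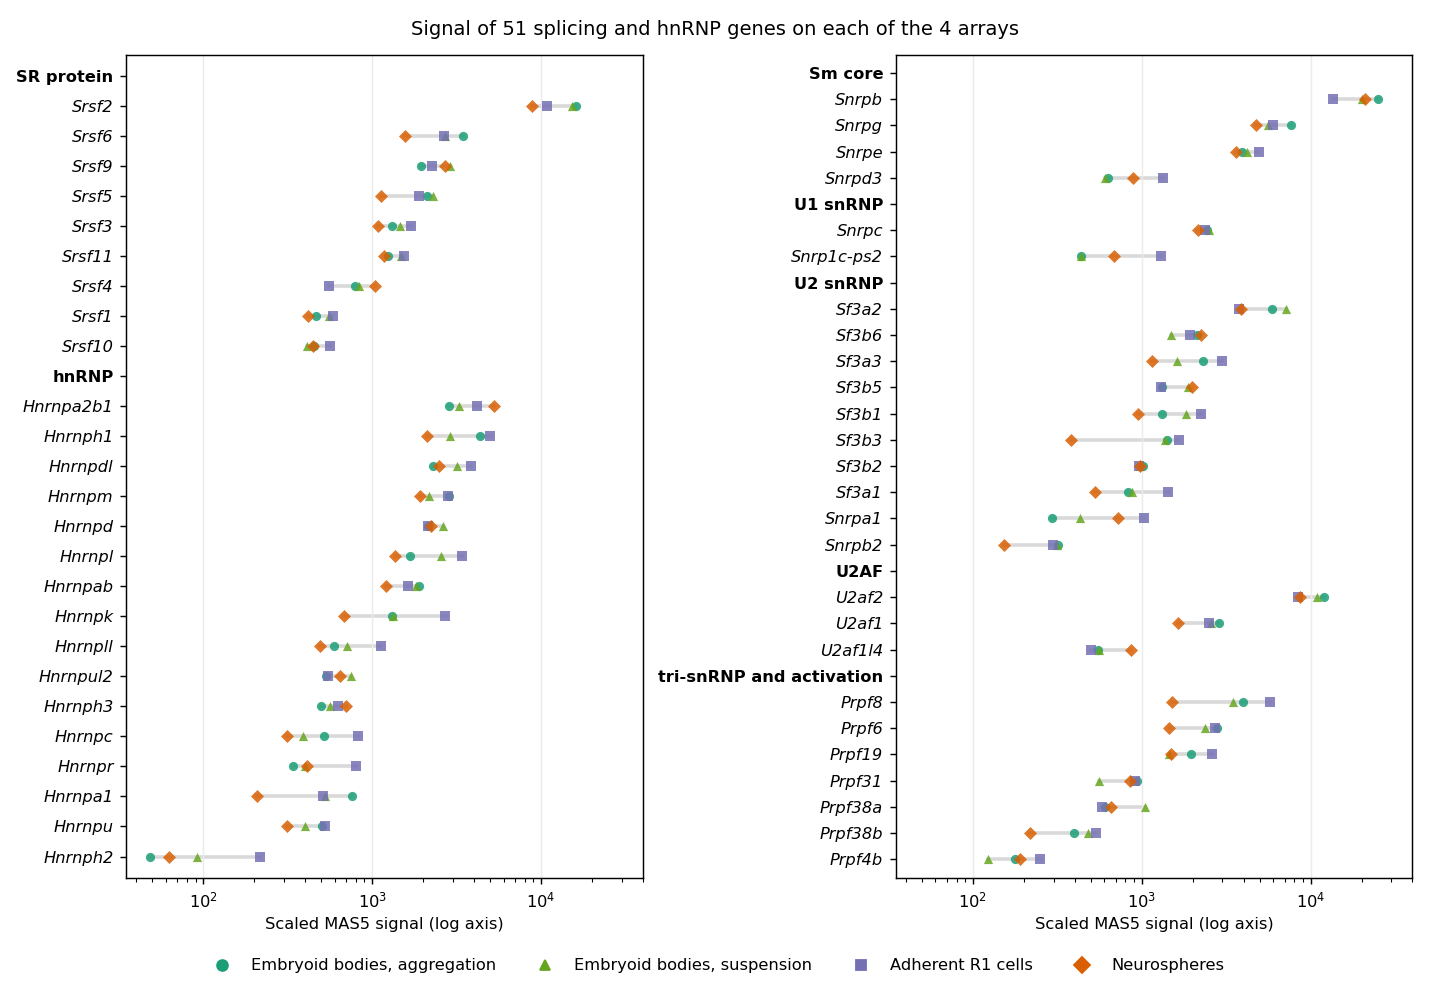
Scaled MAS5 signal on a log axis for the 51 tested genes, grouped by role, with a symbol for each of the 4 arrays and a grey bar from the lowest to the highest array. Neurospheres (orange diamonds) lie left of all R1 arrays for 27 genes, with the widest gap for Sf3b3 at 381 against 1373 to 1651.

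Sf3b3 encodes a large scaffold subunit of SF3B, the complex that holds the branch site in the U2 particle. Its signal was 381 in neurospheres against 1403 (aggregation), 1373 (suspension) and 1651 (adherent). The R1 arrays lay close together and neurospheres lay far below them. The difference was -1.91 ± 0.34 (SE, limma adjusted p = 4.33e-04). Prpf8, the protein at the catalytic centre of the spliceosome, had 1519 in neurospheres against 3970 (aggregation), 3460 (suspension) and 5751 (adherent). Its difference was -1.58 ± 0.27 (adjusted p = 3.11e-04), and the groups did not overlap.

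Hnrnpk encodes a poly(C)-binding hnRNP with roles in transcription, splicing and translation. Its signal was 680 in neurospheres against 1310 (aggregation), 1337 (suspension) and 2717 (adherent). The difference of -1.44 ± 0.32 (adjusted p = 2.88e-03) averages embryoid bodies at nearly one level with an adherent array well above them. Without the adherent array it was -0.93 and did not pass (adjusted p = 0.0794).

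The promoters of these genes, the 3 members that differed most downwards and have a single RefSeq entry, are shown with that of U2af1l4, the member that differed most upwards. Each runs from 250 bases before to 50 bases from an annotated transcription start in GRCm38.p6. The Hnrnpk window lies inside the RefSeq gene span of chr13:58391132-58403343, so its start is not the outermost one of that gene. Sf3b3 lies on the minus strand at chr8:110846754-110847053, Prpf8 on the plus strand at chr11:75486527-75486826, Hnrnpk on the minus strand at chr13:58402068-58402367 and U2af1l4 on the plus strand at chr7:30563090-30563389. Capitals mark matches to any of 6 motifs on either strand: the TATA box core TATAAA, the CCAAT box core CCAAT, the GC box GGGCGG, the ETS factor core CTTCCGG, the NRF1 motif and the E-box CACGTG. The NRF1 motif reads GCGC, then A, any base and again GCGC. Matches could overlap.
Sf3b3: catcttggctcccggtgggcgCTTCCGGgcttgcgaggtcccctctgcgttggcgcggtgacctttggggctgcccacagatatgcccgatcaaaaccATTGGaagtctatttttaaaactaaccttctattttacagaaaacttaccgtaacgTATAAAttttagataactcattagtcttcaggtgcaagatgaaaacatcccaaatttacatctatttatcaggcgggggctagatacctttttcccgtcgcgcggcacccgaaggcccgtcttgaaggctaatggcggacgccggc
Prpf8: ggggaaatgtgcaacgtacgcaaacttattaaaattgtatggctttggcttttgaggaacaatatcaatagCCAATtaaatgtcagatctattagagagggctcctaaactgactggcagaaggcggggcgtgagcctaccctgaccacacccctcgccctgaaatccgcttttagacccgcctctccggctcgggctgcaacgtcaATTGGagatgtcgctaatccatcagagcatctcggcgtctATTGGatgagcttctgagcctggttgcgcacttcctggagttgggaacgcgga
Hnrnpk: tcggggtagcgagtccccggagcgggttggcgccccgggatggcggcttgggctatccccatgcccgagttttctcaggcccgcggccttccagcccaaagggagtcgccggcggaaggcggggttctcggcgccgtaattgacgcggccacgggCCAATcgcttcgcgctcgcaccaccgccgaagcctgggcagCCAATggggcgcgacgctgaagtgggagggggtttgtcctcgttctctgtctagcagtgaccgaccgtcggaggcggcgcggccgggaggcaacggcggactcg
U2af1l4: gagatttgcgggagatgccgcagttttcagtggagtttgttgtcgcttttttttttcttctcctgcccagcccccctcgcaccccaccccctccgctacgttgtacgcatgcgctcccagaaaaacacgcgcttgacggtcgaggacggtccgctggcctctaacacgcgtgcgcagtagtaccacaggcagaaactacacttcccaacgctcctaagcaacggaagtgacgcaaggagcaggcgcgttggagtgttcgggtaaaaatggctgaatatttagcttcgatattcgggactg
The CCAAT core was found 1 time in Sf3b3, 3 times in Prpf8 and 2 times in Hnrnpk. Sf3b3 also held TATAAA, starting 96 bases before the transcription start, and CTTCCGG. None of the 6 motifs was found in the U2af1l4 window. Of the 51 members, 45 had a RefSeq promoter, some with several, 57 in all. CCAAT was in 50.9% of these 57 against 37.4% of all 32851 promoters of the table, and TATAAA in 8.77% against 13.6%. CTTCCGG was in 35.1% against 8.86%, the NRF1 motif in 21.1% against 4.6%, GGGCGG in 68.4% against 35.7%, and CACGTG in 5.26% against 7.15%. The genes that fell had 14 of the promoters, of which 8 held CCAAT, 10 GGGCGG, 3 CTTCCGG, 3 the NRF1 motif, 1 TATAAA and 0 CACGTG. These matches describe the letters of the window and were not tied to the signals.

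Among the U2 particle genes, 3 of 10 fell, 0 rose and the median difference was -0.62. Over all features 11.9% fell and 8.2% rose, and over the brighter ones 21.3% and 10.5%. Besides Sf3b3, Sf3a3 fell (-1.05 ± 0.31, adjusted p = 0.0211), with 1143 in neurospheres against 2291 (aggregation), 1614 (suspension) and 2975 (adherent). SF3A3 is a subunit of SF3A, which joins U2 together with SF3B. Sf3b1, the subunit that clasps the branch site, fell as well (-0.96 ± 0.32, adjusted p = 0.0413), from 1307 (aggregation), 1831 (suspension) and 2236 (adherent) to 943. Its dimmer probe set lay at -0.76. Sf3a1 lay just outside the threshold at -1.02 (adjusted p = 0.0512), with 525 in neurospheres, 830 and 870 in embryoid bodies and 1423 in adherent cells.

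Other subunits of the same complexes had smaller differences or ones above 0. Sf3b2, which contacts the RNA near the branch site, had 975 in neurospheres against 1020 (aggregation), 982 (suspension) and 967 (adherent). Its difference was -0.01, with a 95% interval of -0.73 to 0.71. The Sf3b2 probe set is of the _f_at class, which can read related transcripts. The small subunits Sf3b5 and Sf3b6 lay at 0.47 and 0.26, with intervals of -0.20 to 1.14 and -0.38 to 0.91, and their neurosphere signals of 1979 and 2238 lay above all R1 arrays. Sf3a2, another SF3A subunit, lay at -0.36 (adjusted p = 0.358). It had 3853 in neurospheres and 3778 in adherent cells, against 5889 in aggregation and 7162 in suspension. Another Sf3a2 probe set, nearly as bright, lay at -0.69, with 3151 in neurospheres and 4732 to 6306 on the R1 arrays. Snrpa1 and Snrpb2, which encode partner proteins on a stem loop of the U2 RNA, lay at 0.24 and -0.87 and did not pass. The Snrpb2 probe set used, at 153 in neurospheres, lay below that array's median and passed the filter only through R1 arrays. The dimmer Snrpb2 probe set had the opposite sign, at 0.70, with 273 in neurospheres and 101 to 322 on the R1 arrays. Differences between subunits were not tested, and each value comes from a probe set of its own.

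Of the 7 tested genes of the particle that brings U5 and of activation, 2 fell, 0 rose and the median was -0.49. The shares that fell were 11.9% of all features and 21.3% of the brighter ones. Prpf6, the protein that bridges the parts of that particle, fell (-0.84 ± 0.29, adjusted p = 0.0446), with 1453 in neurospheres against 2800 (aggregation), 2363 (suspension) and 2693 (adherent). Prpf31, which binds the U4 RNA, lay at 0.07, with 851 in neurospheres, 931 and 559 in embryoid bodies and 908 in adherent cells. Prpf19, a ubiquitin ligase of the activating complex, lay at -0.49, with 1483 in neurospheres, which is within the R1 range of 1458 to 2614. Prpf38b, a relative of a yeast activation factor, lay at -1.03 but had a wide interval of -2.05 to -0.01 (adjusted p = 0.148). At 219 in neurospheres it lay below that array's median and passed the filter only through R1 arrays, where it is high. Prpf38a and the kinase gene Prpf4b lay at -0.04 and -0.03.

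The 16 hnRNP genes had 4 falls, 0 rises and a median of -0.55, where 11.9% of all features and 21.3% of the brighter ones fell. Hnrnph1, which binds runs of G, fell (-0.99 ± 0.29, adjusted p = 0.0205), from 4346 (aggregation), 2908 (suspension) and 4991 (adherent) to 2111. Hnrnpl, which binds CA repeats, fell (-0.94 ± 0.31, adjusted p = 0.0377), with 1375 in neurospheres against 1681 (aggregation), 2550 (suspension) and 3419 (adherent). Its neurosphere signal was close to that of aggregation, and the adherent array was the highest. Hnrnpa1, an abundant antagonist of SR proteins, fell (-1.33 ± 0.46, adjusted p = 0.0491), with 208 in neurospheres, 761 and 527 in embryoid bodies and 514 in adherent cells. It lay below the neurosphere array's median and passed the filter only through R1 arrays, where it is high, and without the filter it did not pass (adjusted p = 0.110). The platform annotation gives other probe sets both Hnrnpa1 and related loci, and they were left out with the rest of the 7 probe sets that pair a symbol of these families with another. The Hnrnpa1 value is therefore uncertain.

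Hnrnpa2b1, which also takes part in RNA transport in neural cells, ran the other way on its brightest probe set, with 5296 in neurospheres against 2869 (aggregation), 3248 (suspension) and 4155 (adherent). All R1 arrays lay below neurospheres, but the difference of 0.57 ± 0.27 did not pass (adjusted p = 0.146). Its dimmer probe set lay at -1.90, with 82.1 in neurospheres and 173 to 540 on the R1 arrays. That probe set lay below the neurosphere array's median and passed the filter only through R1 arrays. Hnrnpd, an AU-rich element binding protein gene, lay at -0.01 with an interval of -0.62 to 0.60, and Hnrnpul2 and Hnrnph3 lay at 0.14 and 0.26. The rest of the family that did not pass (Hnrnpc, Hnrnpll, Hnrnph2, Hnrnpu, Hnrnpab, Hnrnpm, Hnrnpr and Hnrnpdl) lay between -0.91 and -0.37.

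Of the 9 SR protein genes 1 fell, 0 rose and the median was -0.36, and neurospheres were the lowest array for 6. Of all features 11.9% fell and neurospheres were lowest for 32%, and of the brighter ones 21.3% and 42.8%. Srsf6 fell (-0.84 ± 0.29, adjusted p = 0.0455), with 1572 in neurospheres against 3438 (aggregation), 2686 (suspension) and 2648 (adherent). Srsf5 lay just outside the threshold at -0.85 (adjusted p = 0.0509), with 1124 in neurospheres against 1904 to 2287 on the R1 arrays. Srsf2, an SR protein confined to the nucleus, had 8809 in neurospheres, 10856 in adherent cells, 16018 in aggregation and 15182 in suspension (-0.56, adjusted p = 0.127). Srsf4 ran the other way without passing, at 0.60 ± 0.37 (adjusted p = 0.277), with 1035 in neurospheres against 558 to 836. Its dimmer probe set lay at 0.82.

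None of the 4 Sm core, 2 U1 or 3 U2AF genes tested passed, where 11.9% of all features fell and 8.2% rose. The Sm proteins form the ring shared by most spliceosomal particles. Snrpb had 21091 in neurospheres against 25068 (aggregation), 20134 (suspension) and 13529 (adherent), a difference of 0.27 with an interval of -0.27 to 0.82. Snrpe and Snrpg lay at -0.30 and -0.39 and Snrpd3 at -0.02. Snrpc, the U1 protein that steadies pairing at the start of the intron, had 2141 in neurospheres, 2441 and 2491 in embryoid bodies and 2357 in adherent cells, an interval of -0.76 to 0.42. U2af2 and U2af1, the large and small subunits of the factor that reads the end of the intron, lay at -0.19 and -0.66. U2af1l4, a paralogue of the small subunit, had 865 in neurospheres and 501 to 555 on the R1 arrays, and its 0.68 ± 0.40 did not pass (adjusted p = 0.255).

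**Figure D2:**
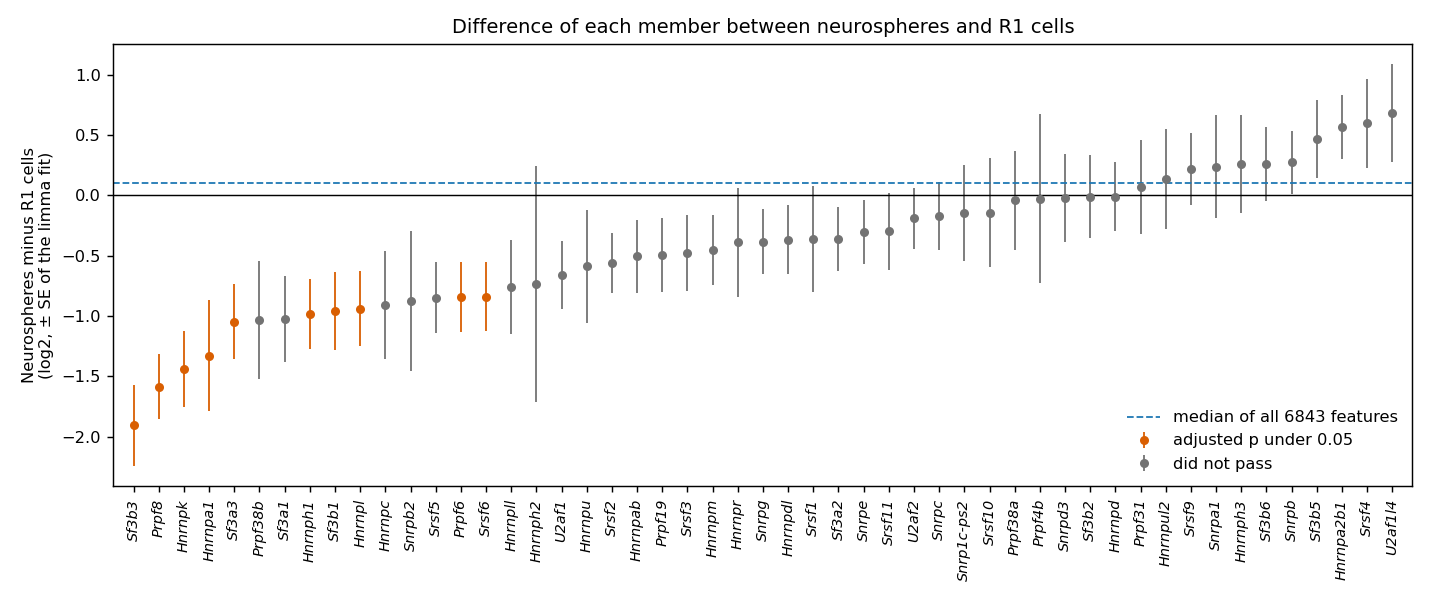
Difference between neurospheres and the R1 mean (embryoid body mean and adherent array weighted equally) for the 51 genes in order of size, on the log2 scale, with the SE of the limma fit. The 10 genes that passed (orange) all lie below 0, from -1.91 for Sf3b3 to -0.84 for Srsf6, and the dashed line marks the median of all features at 0.10.

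The intervals show how far the other genes were resolved. Of the 41 members that did not pass, 16 had a 95% interval within 1 log2 unit of 0, and the interval of 18 reached -1 or lower. The calls also depended on few arrays. In a fit of 2 groups, neurospheres and all R1 arrays, 3 of the 10 calls held, Sf3b3, Prpf8 and Hnrnpk, and the same 3 held in that fit when either embryoid body array was left out. Their differences without either array were -1.90 and -1.91 for Sf3b3, -1.53 and -1.63 for Prpf8 and -1.45 and -1.43 for Hnrnpk. Without the adherent array 5 members were lower, Sf3b3 (-1.78), Prpf8 (-1.27), Srsf6 (-0.94), Srsf5 (-0.95) and Srsf2 (-0.82). The 7 calls other than those of Sf3b3, Prpf8 and Hnrnpk had ended in the fit of 2 groups with all arrays. With aggregation and with suspension left out of that fit their differences were -1.20 and -1.45 for Hnrnpa1, -0.84 and -1.13 for Hnrnph1, -1.09 and -0.79 for Hnrnpl, -0.78 and -0.90 for Prpf6, -0.92 and -1.17 for Sf3a3, -1.08 and -0.84 for Sf3b1 and -0.75 and -0.93 for Srsf6. Without the adherent array Hnrnpa1 (-1.47), Hnrnph1 (-0.74), Hnrnpl (-0.58), Prpf6 (-0.81), Sf3a3 (-0.74) and Sf3b1 (-0.70) did not pass. The neurosphere and aggregation arrays were deposited on a signal scale far below that of the others, and against aggregation alone Sf3b3, Prpf8, Hnrnpa1, Hnrnph1 and Srsf6 were at least 2-fold lower after adding 32 and Snrpa1 at least 2-fold higher, which makes 5 members against 16.7% of all features and 1 against 18.2%. On plain signals Sf3a3 and Snrpb2 were past 2-fold too, which makes 7. Without the intensity trend in the variance, 0 members passed, the smallest adjusted p was 0.0552, and with unadjusted p below 0.05 there were 6 members under R1 cells and 0 above.

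**Figure D3:**
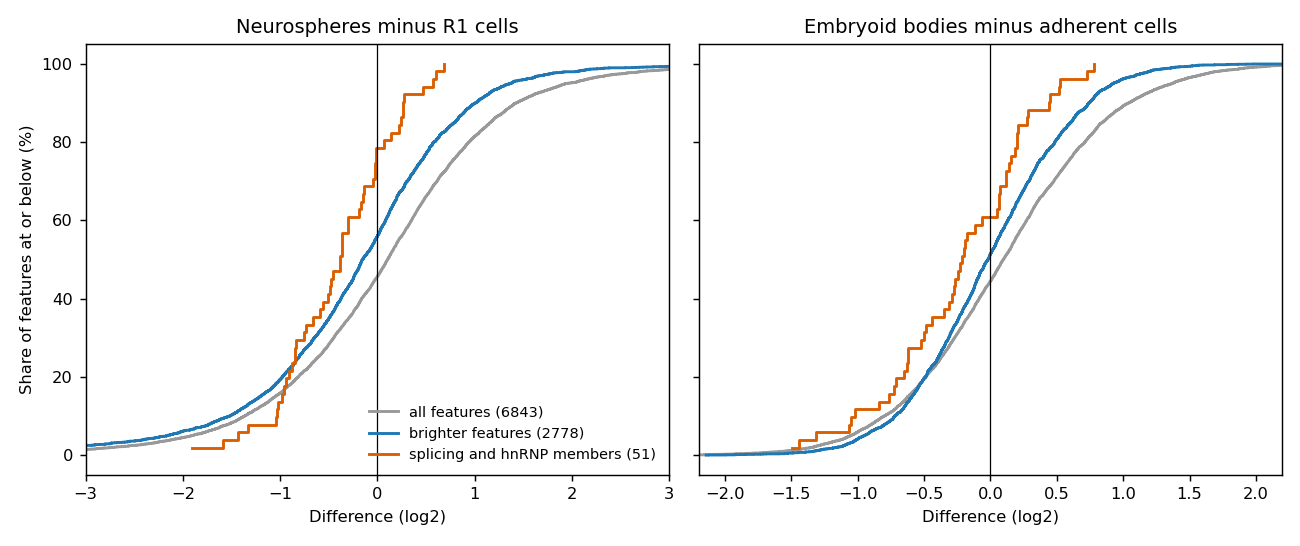
Cumulative share of features at or below each log2 difference, for all 6843 features, the 2778 brighter ones and the 51 members, in both comparisons. In the left panel the members' curve lies left of the others in its middle but starts later, since no member lies below -1.91 and none above 0.68.

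Several genes carried more than 1 probe set, which gave another view of each difference. Of 13 members with at least 2 probe sets above the filter, 8 had the same sign on all of them and 5 did not, namely Hnrnpa2b1, Hnrnpdl, Hnrnpu, Snrpb2 and Srsf1. Srsf10, which represses splicing after heat shock, had 444 in neurospheres and 414 to 561 on the R1 arrays on its brightest probe set (-0.14). Its dimmer probe set had 33.9 in neurospheres and 350 to 453 on the R1 arrays (-2.67). That neurosphere signal is close to the array's 10th percentile of 33.8, and the dimmer probe set passed the filter only through R1 arrays. Probe sets can read different parts or isoforms of a transcript, and which they read was not analysed here.

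**Figure D4:**
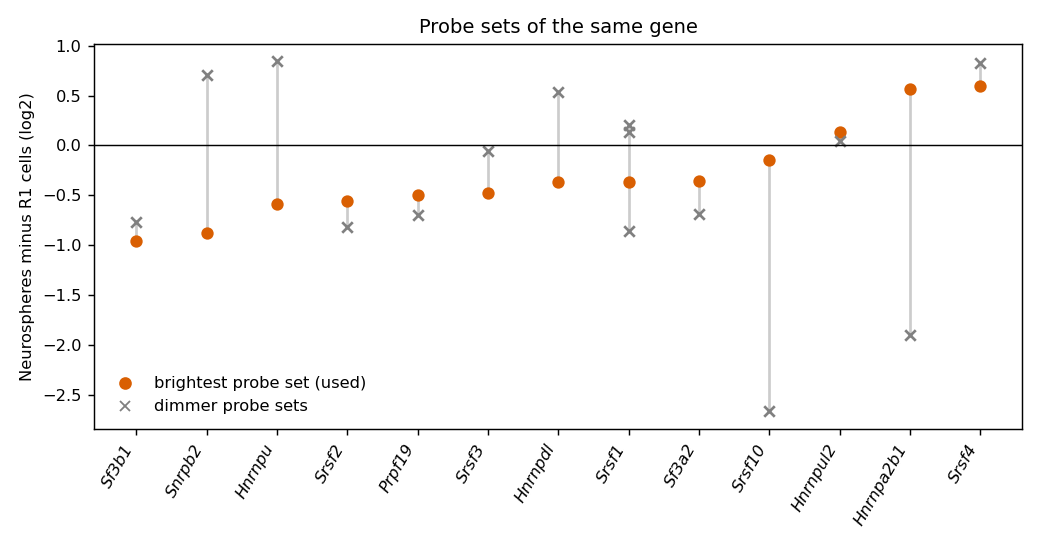
Difference between neurospheres and R1 cells on the log2 scale for each probe set above the filter of the 13 members with several. The brightest, used probe set (orange) and the dimmer ones (crosses) lie furthest apart for Srsf10, at -0.14 and -2.67, and Hnrnpa2b1, at 0.57 and -1.90. The dimmer probe sets of these genes passed the filter only through R1 arrays.

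Splicing genes outside the named families were read from lists chosen with earlier results of these data known. Of 36 other splicing regulators tested 8 fell and 0 rose, with a median of -0.40. Among all features 11.9% fell, and among the brighter ones 21.3%. Neurospheres were the lowest array for 17 of the 36 and the highest for 7, against 32% and 35% of all features. The largest differences above 0, of Celf2, Celf1 and Ptbp2, were 2.85, 1.92 and 1.31. None of them passed (limma adjusted p = 0.115, 0.181 and 0.175). Celf2 and Celf1, at 340 and 323 in neurospheres against 8.48 to 80.7 on the R1 arrays, passed the filter only through neurospheres. Ybx1, a cold shock domain RNA-binding protein, fell from 42305 (aggregation), 37360 (suspension) and 21651 (adherent) to 9949 (-1.56 ± 0.26, adjusted p = 2.28e-04). Esrp1, an epithelial splicing regulator, fell as well (-2.22), as did Rbm25 and Rbm39, which are found with SR proteins (-2.67 and -1.13). With the mean of its probe sets Rbm39 lay at -1.97. Esrp1 and Rbm25, at 41.3 and 14.4 in neurospheres, lay below that array's median and passed the filter only through R1 arrays. Without the filter Esrp1 and Rbm39 did not pass (adjusted p = 0.0605 and 0.0549). In the fit of 2 groups Rbm39 lost its call with all arrays (-0.99, adjusted p = 0.126), and Ybx1, Esrp1 and Rbm25 lost theirs with aggregation left out (-1.51, -2.28 and -2.62) and with suspension left out (-1.60, -2.15 and -2.72). Without the adherent array Rbm25 and Rbm39 lost theirs (-2.57 and -0.72).

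Of 46 other spliceosome and exon junction genes 9 fell and 0 rose, with a median of -0.25, beside the same 11.9% and 21.3%. The genes that fell most were the helicase gene Dhx16 (-2.43), Sart1, a tri-snRNP protein (-2.24), Smndc1, a spliceosome assembly factor (-2.04), and Coil, the coilin of Cajal bodies (-1.57). In the fit of 2 groups the call of Coil ended with all arrays (-1.53, adjusted p = 0.0530), and that of Sart1 with aggregation left out (-2.08). Against embryoid bodies alone in the 3-group fit Coil passed (-1.45, adjusted p = 0.0396), and with the adherent array left out it did not (adjusted p = 0.0596). Sart1 and Coil (62.5 and 190 in neurospheres) passed the filter through R1 arrays, and without the filter Coil did not pass (adjusted p = 0.0542). Of 8 genes for kinases and phosphatases of splicing factors 1 fell, Clk1, a kinase of SR proteins, with 679 in neurospheres, 3055 and 1969 in embryoid bodies and 3537 in adherent cells (-2.07 ± 0.31, adjusted p = 9.73e-05), and 0 rose. Cell cycle genes moved in the same comparison, 11 of 26 lower and 2 higher, with a median of -0.82 and a summed signal of 54524 in neurospheres against 77401 to 84078 on the R1 arrays. Cdk2, Mcm2, Mcm3 and Cdc20 fell (-2.25, -2.01, -1.75 and -1.63). The D-type cyclins Ccnd2 and Ccnd1 rose by 4.37 and 3.50, and Ccnd1 by 2.05 with the mean of its probe sets. Ccnd2, at 1340 in neurospheres against 17.8 to 74.9 on the R1 arrays, passed the filter only through neurospheres. Cdk2, at 123 in neurospheres, passed it only through R1 arrays. The part of these cell cycle differences in the splicing genes was not tested. Without the aggregation array Cdc20 lost its call (-1.43).

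The next comparison set embryoid bodies against adherent R1 cells, that is, floating against attached growth. No member passed limma's test in either direction, where the background over all features was 0.263% higher and 0.0877% lower, and with unadjusted p below 0.05 there were 7 members under adherent cells (5.86% of all features) and 2 above (8.51%). The members' median was -0.21 against 0.10 over all features and -0.02 over the brighter ones. Both embryoid body arrays lay below adherent cells for 27 of 51 members and above for 17, against 32.7% and 42.2% of all features. In the brighter range it was 17 (44.7%) and 14 (36.8%) of 38 members, near the 40.6% and 37.9% of features there. Adherent cells were the highest of the 4 arrays for 25 members, against 23.6% of all features, and for 16 of these neurospheres were the lowest, against 15.4%. In the brighter range these orders held for 16 and 12 of 38 members, against 31.8% and 22.6% of features. The adherent array, which stood apart in its distribution, enters every one of these values, and its part in them cannot be told apart from growth form.

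The largest differences were seen in Snrp1c-ps2, Snrpa1 and Hnrnph2. Snrp1c-ps2, which RefSeq lists as a pseudogene, had 439 and 437 in embryoid bodies, 1291 in adherent cells and 681 in neurospheres (-1.49 ± 0.41, adjusted p = 0.123). Its probe set is of the _f_at class, which can read related transcripts, and Snrpc, the gene of the U1 protein described above, lay at 0.06. Snrpa1 had 295 and 432 in embryoid bodies, 1029 in adherent cells and 725 in neurospheres (-1.45 ± 0.45, adjusted p = 0.177). Hnrnph2, an X-linked relative of Hnrnph1, had 48.4 and 92.1 in embryoid bodies and 217 in adherent cells (-1.32 ± 1.02, adjusted p = 0.589). Both embryoid body signals lay below their array's median. Hnrnph2 passed the filter only through the adherent array, where it is high and the array median was lowest, at 178. In the other direction lay Sf3a2 (0.78, interval 0.20 to 1.35), Snrpb (0.73, 0.16 to 1.30) and Srsf2 (0.52, -0.03 to 1.07). The probe sets used are of the _r_at class for Sf3a2 and Snrpb and the _s_at class for Srsf2. Another Sf3a2 probe set, nearly as bright, lay at 0.22, with 4798 in suspension and 4732 in adherent cells. The dimmer Srsf2 probe set had the opposite sign, at -0.44. On the higher deposited scale, suspension alone differed from adherent cells by -1.50 for Snrp1c-ps2, -1.19 for Snrpa1, 0.92 for Sf3a2, 0.57 for Snrpb and 0.48 for Srsf2. Of the 51 intervals, 18 lay within 1 log2 unit of 0 and 25 reached -1 or lower.

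**Figure D5:**
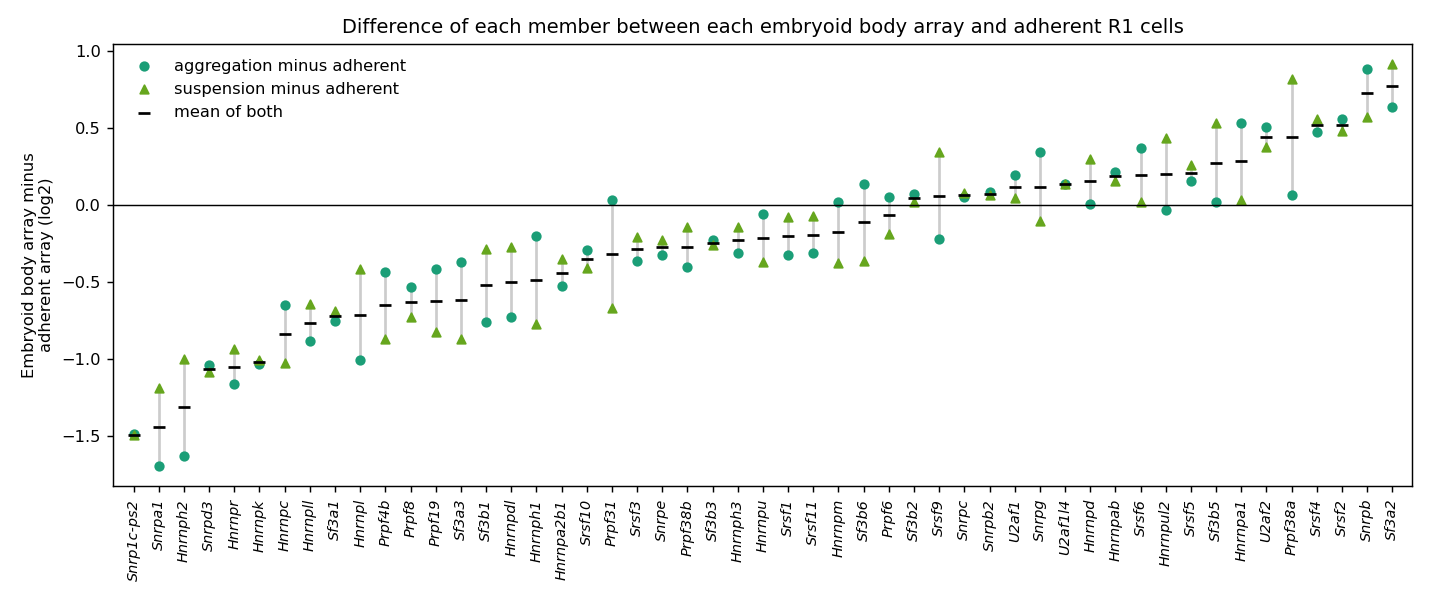
Difference of each embryoid body array from adherent R1 cells on the log2 scale for the 51 genes, with the mean of both as a dash and a grey line joining the arrays. Most dashes lie below 0, from -1.49 for Snrp1c-ps2 to 0.78 for Sf3a2, and the aggregation and suspension arrays lie up to 0.76 apart, for Prpf38a.

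The aggregation and suspension arrays differed by a median of 0.24 in size over the members, against 0.37 over all features and 0.27 over the brighter ones. No member differed by 2-fold or more between them, where 6.25% of all features were at least 2-fold higher in aggregation and 8.02% lower. The largest differences were those of Prpf31 (0.70), Hnrnph1 (0.57) and Hnrnpa1 (0.50) towards aggregation and Prpf38a (-0.76), Hnrnph2 (-0.63) and Hnrnpl (-0.59) towards suspension. Prpf38a, for example, had 609 in aggregation and 1049 in suspension. With 1 array each, this comparison has no test.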

How the data were processed

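Total RNA was hybridised to 4 MG_U74Av2 arrays. Apart from their titles, the labels do not place the 2 embryoid body arrays in separate cultures. The deposited table holds linear signal intensity per probe set, computed by the authors with MAS5 per the submitters' processing notes. Its version, scaling target and settings were not given in any source used here. Trimmed means of the deposited intensity (2% of values left out at each end, 66 control probe sets left out) were 32.5 (aggregation), 1485 (suspension), 29.5 (neurospheres) and 1490 (adherent), so each array was scaled to 500. No detection calls were used, and the number of arrays limits the precision.

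After adding 32 and taking log2, limma 3.58.1 (R 4.3.3) was fitted to all 6843 features and 4 arrays in 3 groups, with empirical Bayes moderation and an intensity trend. There was 1 residual degree of freedom, between the embryoid body arrays, the prior added 17.34, and single arrays were assumed to vary like embryoid bodies. P-values were two-sided and Benjamini-Hochberg adjusted over all features. Tested on simulated data, the fit recovered the direction of changes, but in most draws it made more false calls than the threshold allows. Calls near the threshold are therefore less certain, and so are all member calls other than those of Sf3b3 and Prpf8. The members and lists were chosen with earlier results of these data known. Named genes were those called, the brightest of each family, and the largest differences each way, with up to 4 called genes each way of each list. Celf2, Celf1 and Ptbp2 were named as well, outside this rule. Alternatives changed the added value, filter, scaling, trend, probe sets, groups and arrays. Gene symbols of all 51 tested members matched RefSeq (GRCm38.p6) by gene identifier.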

Additional observations from a re-analysis of the deposited data

How the results depend on the processing

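In the comparison of neurospheres with R1 cells, the 10 members called lower became 3 without the signal filter, 6 after quantile normalization, 6 against the embryoid bodies alone, 3 in the fit of 2 groups and 0 without the intensity trend, where 6 were lower with unadjusted p below 0.05. Leaving out an array gave 3 to 5. With 1 or 100 added, the mean of probe sets, plain probe sets alone or the adherent array alone the count was 8 to 12, and 0 members were called higher in any of these fits. Over all features the counts of 561 higher and 816 lower became 219 and 245 without the trend, 269 and 400 when aggregation was left out and 329 and 451 when suspension was. For these the fit of 2 groups with all arrays gave 381 and 566. Against the aggregation array alone, which like the neurosphere array was deposited on the lower signal scale, 5 members were at least 2-fold lower after adding 32 (7 on plain signals) and 1 was higher, against 3 and 0 for all R1 arrays. This alternative and the one without the adherent array were chosen after seeing the data. Over all 51 members, 6 differences turned sign against the embryoid bodies alone and 7 against the adherent array alone, 0 of them among the 10 that had passed. Of the genes followed in this comparison under every alternative, signs turned for Hnrnpa2b1 with the mean of its probe sets (-0.67), Snrpb against the embryoid bodies alone or without the adherent array (-0.0910, and 0.353 without the aggregation array), and Sf3a2 and U2af2 against the adherent array alone (0.0281 and 0.0317). The causes of these shifts were not tested. The comparison of embryoid bodies with adherent cells called 0 members in every fit run, and without the trend 0 members were above and 5 below with unadjusted p below 0.05. Leaving out an embryoid body array there leaves no residual degree of freedom, so it gave values with no test. No paired analysis was possible because neurospheres and adherent cells gave 1 array each.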
